A study of Bos taurus with 6 samples.

Results

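The miRNAs of the miR-193 and miR-365 clusters were examined in small RNA libraries of cultured bovine granulosa cells, which are cells of the ovarian follicle. Members were taken by name: every listed row called bta-miR-193a, bta-miR-193b or bta-miR-365, with or without an arm suffix. This gave 6 of the 1028 miRNAs listed in each library: bta-miR-193a-3p, bta-miR-193a-5p, bta-miR-193b, bta-miR-365-3p, bta-miR-365-5p and bta-miR-193a without a suffix. The cells came from small antral follicles of 3 to 6 mm, were grown for 24 h at 37 °C, and were then left at 37 °C (control, 3 libraries) or moved to 42 °C (heat stress, HS, 3 libraries) for 24 h. Ovaries came from a slaughterhouse, so breed and age of the cows are not given. The labels number the libraries 1 to 3 as biological replicates without saying which animals or pools a number stands for.

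In mammals, miR-193 and miR-365 are encoded side by side in a pair of short clusters and are made from shared primary transcripts. Each hairpin can yield a miRNA from its 5′ arm (5p) and one from its 3′ arm (3p), of which one is usually kept and the other degraded. The 3p arms of miR-193a and miR-193b belong to a single seed family, and both families are known as brakes on proliferation, with cyclin D1 and MCL1 among the mRNAs reported as targets of miR-193 or miR-365. The clusters are also known from brown fat differentiation, where miR-193b and miR-365 are induced together.

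The RefSeq gene table of the bovine assembly ARS-UCD2.0 holds 5 genes for the 6 names. MIR193B and MIR365-1 are direct neighbours, with no annotated gene between them, and both overlap the lncRNA gene LOC100849865. MIR193A and MIR365-2 share another chromosome, with MIR2333 as the only annotated gene between them. bta-miR-2333 was listed at 0 in all 6 libraries. MIR365-2 overlaps the lncRNA gene LOC132343021, whereas MIR193A overlaps no annotated gene. A common overlapping gene is thus annotated only for MIR193B and MIR365-1. A further gene, MIR193A-2, overlaps the protein-coding gene ZNF623 and has no miR-365 gene on its chromosome. The libraries list bta-miR-365-3p and bta-miR-365-5p once each, without naming the gene, so their reads could not be assigned to either cluster. The same holds for the rows of miR-193a and its 2 genes.

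The values are TMM-normalised CPM: reads per miRNA divided by an effective library size, a scaling built on the assumption that the bulk of miRNAs is unchanged. The recovered totals were 2076239 to 4590971 reads per library, with control replicate 1 the lowest. By the study's read summary this library was not the lowest in reads passing quality control. It had the smallest share of reads mapped to annotated miRNAs among the cell libraries. The gonadal miRNA bta-miR-202 was present in every library, at summed levels of 1346 to 2749 normalised CPM in control and 1309 to 2095 in HS cells. Leukocyte miRNAs (bta-miR-223, bta-miR-142 arms and bta-miR-150) summed to 700.2 to 842.7 in control and 613.9 to 749.2 in HS cells. Epithelial, muscle and erythroid marker sums stayed at or under 245.1. The sums of the mesenchymal markers were 1324 to 2083 in control and 2008 to 2192 in HS cells. No marker sum was therefore separated between the groups. In the mesenchymal set 1 single marker was apart, bta-miR-199a-5p, at 250 to 324.4 in control and 326.8 to 372.7 in HS cells. Of all tested miRNAs, 20% had groups apart. In libraries of whole cultures, a change in the number of cells of one type and a change in RNA per cell cannot be told apart.

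bta-miR-365-3p was by far the most abundant member. Control replicates 1, 2 and 3 held 1923, 1719 and 1736 normalised CPM of it, and HS replicates 1, 2 and 3 held 1609, 1843 and 1819. By its mean over the 6 libraries it ranked 58 among all listed miRNAs, and it held 88.7% to 91.6% of the reads of the members in each library. The groups overlapped, with the highest value in control replicate 1 and the lowest in HS replicate 1. Together the 6 members took 0.175% to 0.213% of all reads.

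bta-miR-193a-5p, the 5p arm of miR-193a, was the next most abundant. It had 169.4, 101.5 and 113.1 normalised CPM in control and 132.4, 129.2 and 109.4 in HS cells, for replicates 1, 2 and 3. Control replicate 1 stood above all other libraries, and the HS values lay within the control range. The coefficient of variation was 28.4% in control and 10.1% in HS cells, against 5% and 4.67% from read counting alone.

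bta-miR-193b, which is listed without an arm suffix, had 40.5, 36.5 and 37.3 normalised CPM in control and 43.5, 47.9 and 49.8 in HS cells. All HS values were above all control values. These values rested on 83 to 234 reads per library, and the coefficients of variation of 5.57% in control and 6.9% in HS cells were no larger than those from read counting, 9.21% and 7.66%.

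bta-miR-365-5p had 25.4, 16.3 and 19.5 normalised CPM in control and 29.2, 19.6 and 22.3 in HS cells, on 52 to 105 reads per library. The groups overlapped. In both groups replicate 1 held the highest value of this arm, as it did for bta-miR-193a-5p.

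**Figure D1:**
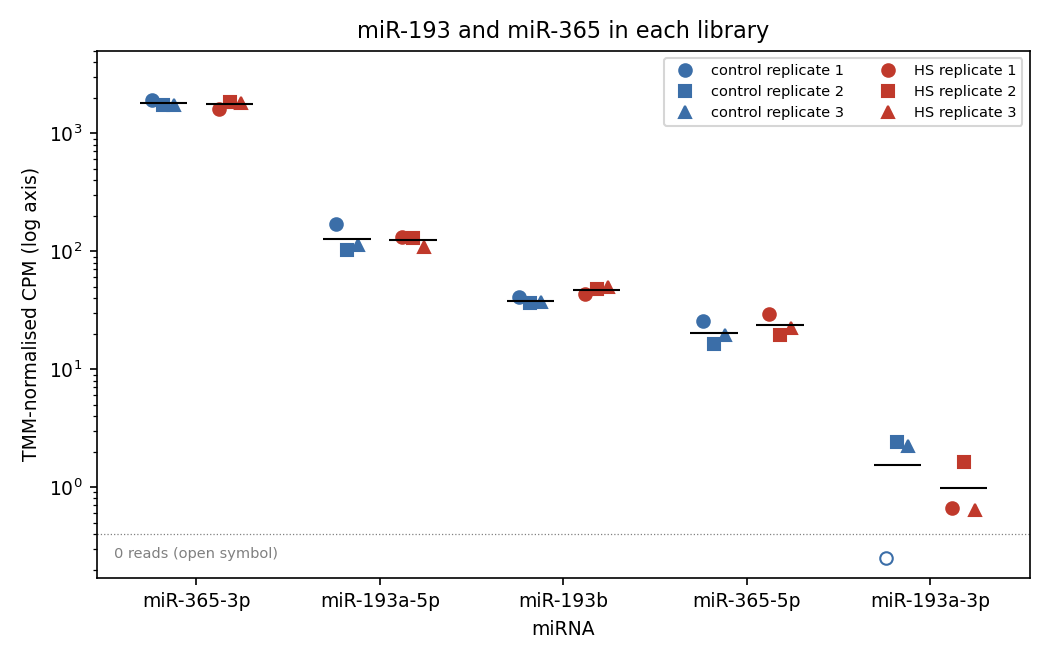
Normalised CPM of 5 members in each library, on a log axis, with control libraries in blue and HS libraries in red, symbols for the replicate number and black lines for group means (n = 3 each). bta-miR-365-3p lies between 1609 and 1923, bta-miR-193a-3p at no more than 2.39, and the groups are separated for bta-miR-193b (36.5 to 40.5 against 43.5 to 49.8).

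The 3p arm of miR-193a was close to the limit of detection. For replicates 1, 2 and 3, bta-miR-193a-3p had 0, 11 and 8 reads at 37 °C against 2, 6 and 3 reads at 42 °C. This is 0, 2.39 and 2.23 normalised CPM in control and 0.664, 1.63 and 0.639 in HS cells. In 3 libraries the number of reads was at or under the floor of 3 reads. The difference of HS from control on the log2(value + 1) scale was -0.20, and it was -0.78 without control replicate 1 and turned to 0.10 or 0.067 without control replicate 2 or 3. bta-miR-193a without a suffix had 1 read, in control replicate 2, and 0 in the other 5 libraries, too few to describe a change.

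The order of levels was the same in nearly every library: bta-miR-365-3p, bta-miR-193a-5p, bta-miR-193b, bta-miR-365-5p, bta-miR-193a-3p and bta-miR-193a. Each miRNA was above the next in 6 of 6 libraries, apart from bta-miR-193a-3p and bta-miR-193a, which were both at 0 in control replicate 1. The distance between neighbouring levels is given as the log2 ratio of reads within libraries, with no test, since these 3 ratios were added after the order was seen. bta-miR-365-3p had 14.3 times the reads of bta-miR-193a-5p, a log2 ratio of 3.84 ± 0.24 (SD, n = 6). bta-miR-193b had 0.341 times the reads of bta-miR-193a-5p (log2 ratio -1.55 ± 0.30, SD, n = 6). bta-miR-365-5p had 0.512 times the reads of bta-miR-193b (log2 ratio -0.97 ± 0.29, SD, n = 6). The ranges of bta-miR-365-5p (16.3 to 29.2 normalised CPM) and bta-miR-193a-3p (at most 2.39) were apart. The ligation steps of small RNA libraries favour some sequences, so a ratio between miRNAs need not equal the ratio of molecules in the cell.

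Whether the arms of a hairpin were kept in the same proportion was asked next. The arm reads of miR-193a were almost all from the 5p arm, and those of miR-365 almost all from the 3p arm. The 3p arm supplied 0%, 2.3% and 1.93% of miR-193a arm reads for replicates 1, 2 and 3 at 37 °C, against 0.499%, 1.25% and 0.58% at 42 °C. For control replicate 1, 0 of 347 reads allows a share of up to 0.865% by the floor of 3 reads, and the exact interval ran up to 1.06%. The exact (Clopper-Pearson) 95% intervals of the single libraries covered counting error only. They ran up to 4.08% in control replicate 2 and up to 2.7% in HS replicate 2, and the groups overlapped.

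With 0.5 reads added to each arm, since control replicate 1 had no 3p read, the 5p arm exceeded the 3p arm of miR-193a 115-fold by the mean of the log2 ratios (log2 ratio of 3p to 5p -6.85 ± 1.51, SD, n = 6, exact two-sided sign-flip permutation p = 0.03125, the smallest possible with 6 libraries). By group the log2 ratio was -6.79 ± 2.30 at 37 °C and -6.90 ± 0.62 at 42 °C (SD, n = 3 each). The groups differed by -0.12, less than the SD of either (two-sided exact permutation p = 1, where 0.1 is the lowest that 3 against 3 can give). On 19 reads of the 3p arm in control and 11 in HS cells, no shift in arm use was detectable at this depth. The sign of the difference turned when control replicate 2 or 3, or HS replicate 1 or 3, was left out, with values of 0.61, 0.49, 0.092 and 0.032. It was -1.44 without control replicate 1, the library with no 3p read, and -0.31 with 1 read added in place of 0.5. Summed over the libraries of a group, the 3p arm gave 1.53% of the arm reads in control and 0.786% in HS cells.

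For miR-365 the arms were the other way around. The 5p arm gave 1.3%, 0.939% and 1.1% of the arm reads in control and 1.78%, 1.05% and 1.21% in HS cells. The 3p arm exceeded the 5p arm 81.8-fold (log2 ratio 6.35 ± 0.32, SD, n = 6, exact sign-flip permutation p = 0.03125). All 5 ratios of the design had this smallest possible p, so adjustment over them left it at 0.03125 by construction. It says only that the sign was the same in all 6 libraries. By group the log2 ratio was 6.48 ± 0.24 at 37 °C and 6.23 ± 0.40 at 42 °C (SD, n = 3 each), and the groups overlapped. They differed by -0.25, against an SD of 0.40 among the HS libraries (two-sided exact permutation p = 0.5). Among the 6 libraries, HS replicate 1 had the largest share of the 5p arm, with an interval of 1.43% to 2.19%. Without it the difference was -0.028, and it was -0.13 without control replicate 2 and -0.41 without HS replicate 2.

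**Figure D2:**
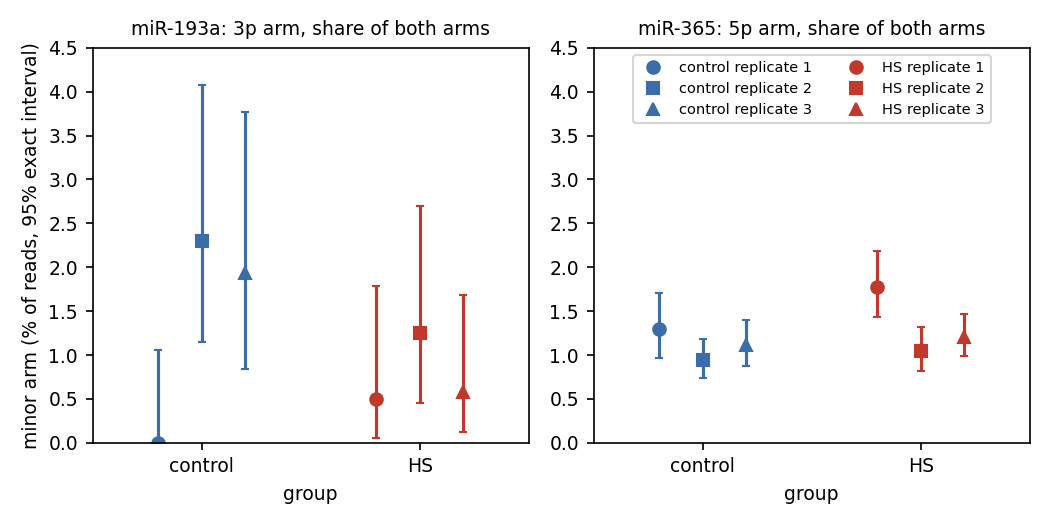
Share of the minor arm among the reads of both arms in each library, in percent, for miR-193a (3p arm, left) and miR-365 (5p arm, right), with exact 95% intervals from read counts; control in blue, HS in red. Minor arms supplied between 0% and 2.3% of the arm reads in every library, and the groups overlap in both panels.

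To determine whether the members responded to HS, every miRNA that passed the filter on low reads was tested with limma on log2(value + 1), with HS set over control on that scale, which understates changes of low miRNAs. Of the 6 members 4 passed the filter. bta-miR-193a-3p and bta-miR-193a were too low. None of the 4 was called at the study's threshold, namely adjusted p ≤ 0.2 together with a 2-fold or larger change (log2 size ≥ 1), which 3.01% of the tested miRNAs reached. None had an adjusted p under 0.05, reached by 2.19%, or an unadjusted p under 0.05, reached by 14.5%. The edgeR quasi-likelihood and DESeq2 Wald tests on recovered reads also called 0 of the 4 members.

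bta-miR-193b showed the largest fold change of these 4. Its mean was 38.1 ± 2.12 normalised CPM at 37 °C and 47 ± 3.25 at 42 °C (SD, n = 3 each). The log2 fold change was 0.30 ± 0.16 (SE, 95% interval -0.083 to 0.67, limma adjusted p = 0.454). Its unadjusted p of 0.107 ranked 86 among the tested miRNAs. It was the only tested member whose groups did not overlap. Non-overlapping groups were seen for 20% of the tested miRNAs, and for 9.59% with HS as the higher group, so 1 of 4 members is near that background.

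The means of bta-miR-365-5p were 20.4 ± 4.61 at 37 °C and 23.7 ± 4.95 at 42 °C (SD, n = 3 each), with a log2 fold change of 0.21 ± 0.24 (SE, 95% interval -0.36 to 0.79, limma adjusted p = 0.835). The abundant arm showed a smaller difference. bta-miR-365-3p was at 1793 ± 113 without and 1757 ± 129 with HS (SD, n = 3 each), for a log2 fold change of -0.029 ± 0.12 (SE, 95% interval -0.31 to 0.25, limma adjusted p = 0.959). bta-miR-193a-5p was at 128 ± 36.3 and 123.7 ± 12.5 (SD, n = 3 each), for a log2 fold change of -0.019 ± 0.23 (SE, 95% interval -0.55 to 0.52, limma adjusted p = 0.977).

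The 95% intervals of all 4 excluded a log2 fold change of 1 in either direction. The narrowest belonged to bta-miR-365-3p, on 3938 to 8547 reads per library. The median size of the log2 fold change over all tested miRNAs was 0.20, between the values of bta-miR-365-3p and bta-miR-193a-5p on one side and those of bta-miR-193b and bta-miR-365-5p on the other. The sign for bta-miR-193a-5p turned to 0.20 without control replicate 1 and to 0.067 without HS replicate 3. That for bta-miR-365-3p turned to 0.022 without control replicate 1 and to 0.033 without HS replicate 1. For bta-miR-193b it was 0.34 without control replicate 1. For bta-miR-365-5p it fell to 0.057 without HS replicate 1 and to 0.069 without control replicate 2, and rose to 0.37 without control replicate 1 and to 0.33 without HS replicate 2. It was 0.033 with upper quartile factors. These factors moved the median of all tested miRNAs to -0.18 and took bta-miR-193b to 0.11, bta-miR-365-3p to -0.22 and bta-miR-193a-5p to -0.20.

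**Figure D3:**
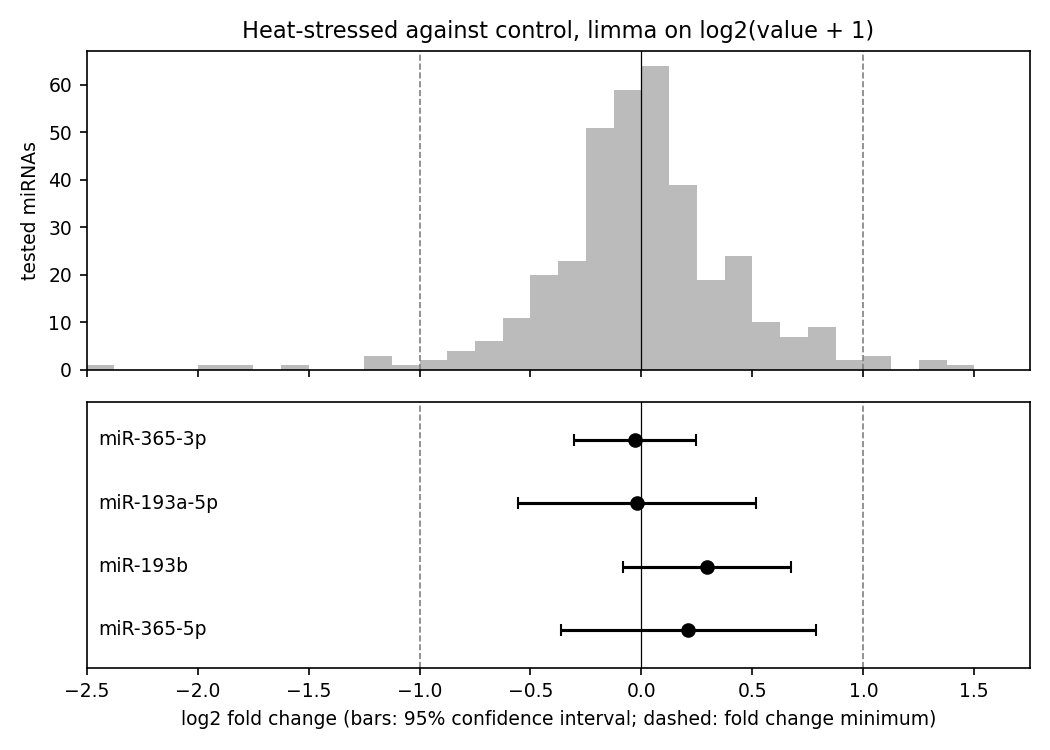
Upper panel: number of tested miRNAs by log2 fold change, HS against control. Lower panel: the 4 tested members with 95% confidence intervals, none of which reaches the dashed lines at 1 and -1, and all of which include 0.

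Ratios between members within a library do not depend on how the libraries were scaled, and they were used to ask whether the members moved apart under HS. Of the 8 ratios computed, the groups were apart for 1, that of bta-miR-365-3p to bta-miR-193b, a pair for which the gene table holds adjacent genes. In replicates 1, 2 and 3 there were 47.4, 47.1 and 46.5 reads of bta-miR-365-3p for each read of bta-miR-193b at 37 °C, against 37, 38.5 and 36.5 at 42 °C. The ratio was lower in all HS libraries than in any control library. Such a separation was seen for 21.3% of the ratios between all pairs of tested miRNAs, for 17.6% of those of bta-miR-365-3p and for 32.1% of those of bta-miR-193b to another tested miRNA (0.5 reads added), so 1 of 8 is not above that background. On the log2 scale this was 5.55 ± 0.015 at 37 °C against 5.22 ± 0.04 at 42 °C (SD, n = 3 each), a difference of -0.33 or a ratio that was 0.794 times as high.

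A two-sided exact permutation test gave p = 0.1, the lowest that 3 against 3 allows, and an adjusted p of 0.5 over the 5 ratios, so this test could not have gone under 0.05 whatever the size of the difference. The SD within groups was smaller than the counting error of a single library, which averaged 0.13 in control and 0.11 in HS libraries on the log2 scale. The intervals of single libraries overlapped between groups, with 39.2 to 55.6 for control replicate 3 and 31.1 to 44.4 for HS replicate 1, for example. When each library was left out in turn the difference ran from -0.35 to -0.32.

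The other ratios showed no separation of the groups. Against bta-miR-193a-5p, bta-miR-365-3p stood at a log2 ratio of 3.84 ± 0.30 at 37 °C and 3.83 ± 0.23 at 42 °C (SD, n = 3 each, difference -0.011, exact permutation p = 0.9). The sign of this difference turned without control replicate 2 (0.11) or 3 (0.038) or HS replicate 1 (0.10). Among control replicates this ratio ran from 11.3 reads per read in control replicate 1 to 16.9 in control replicate 2. bta-miR-193b against bta-miR-193a-5p had log2 ratios of -1.71 ± 0.31 and -1.39 ± 0.24 (SD, n = 3 each), with overlapping groups and a difference of 0.32 (exact permutation p = 0.3). The difference was 0.15 without control replicate 1 and 0.19 without HS replicate 3. bta-miR-365-5p against bta-miR-193b differed by -0.082 (exact permutation p = 0.8, n = 3 each), and by 0.044 without control replicate 1 and 0.060 without HS replicate 2.

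Against bta-miR-193a-3p, the differences were 0.44 for bta-miR-193b and 0.10 for bta-miR-365-3p (exact permutation p = 0.8 and p = 1, n = 3 each). With 1 read added in place of 0.5 they were 0.63 and 0.30, and without control replicate 1 they were 1.59 and 1.26. The first turned to -0.17 or -0.11 without control replicate 2 or 3, and the second to -0.50 or -0.45 without these and to -0.16 without HS replicate 3. The SD was 1.996 and 2.005 log2 units in control, where replicate 1 had no read of the 3p arm, and 0.67 and 0.63 in HS libraries. Summed over the 6 libraries there were 926 reads of bta-miR-193b and 38258 of bta-miR-365-3p against 30 of bta-miR-193a-3p, or 30.9 and 1275 times as many. The mean log2 ratios within libraries were 5.30 ± 1.35 and 10.68 ± 1.33 (SD, n = 6), with 0.5 reads added. The exact sign-flip permutation p was 0.03125 each, the smallest possible, which adjustment over 5 ratios with the same p leaves unchanged.

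**Figure D4:**
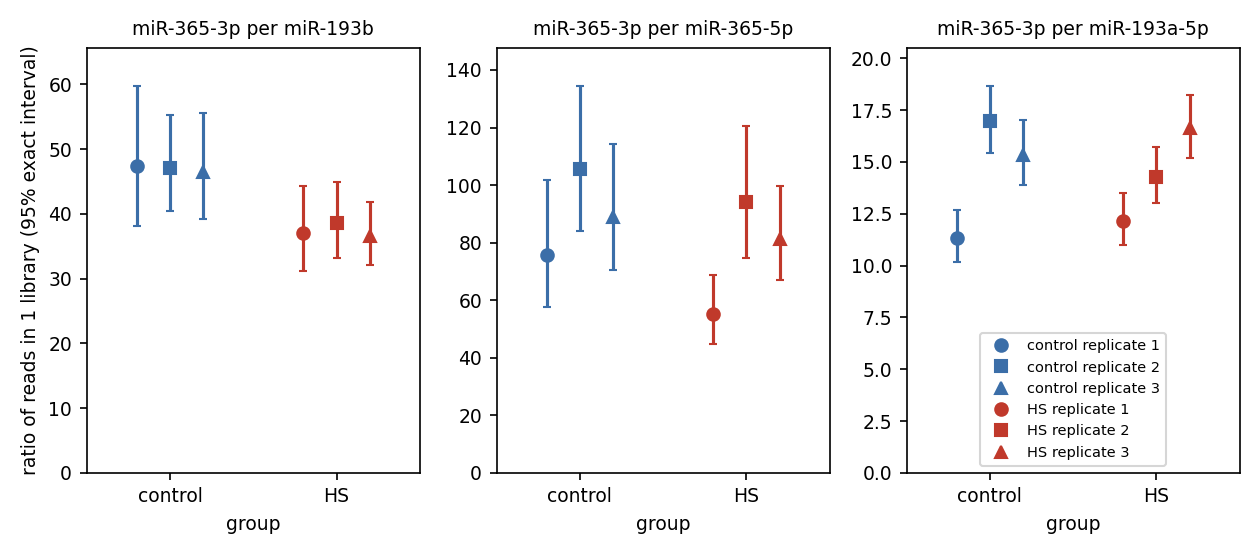
Reads of bta-miR-365-3p per read of bta-miR-193b (left), bta-miR-365-5p (middle) and bta-miR-193a-5p (right) in each library, with exact 95% intervals from read counts; control in blue, HS in red. The groups are separated in the left panel (46.5 to 47.4 against 36.5 to 38.5) and overlap in the other panels.

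The miRNAs whose profile over the 6 libraries was nearest to that of each tested member were found by the root mean square distance of log2(value + 1), centred on the mean of each miRNA. The nearest to bta-miR-193b was bta-let-7d, a member of the let-7 family, at a distance of 0.061, followed by bta-miR-99a-3p and bta-miR-346. For bta-miR-365-3p they were bta-miR-425-5p, bta-miR-3432a and bta-miR-103, at distances of 0.08 to 0.09. For bta-miR-193a-5p they were bta-miR-424-3p, bta-miR-6520 and bta-miR-542-5p (0.094 to 0.098), and for bta-miR-365-5p they were bta-miR-6123, bta-miR-503-3p and bta-miR-2285bc (0.118 to 0.144).

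bta-let-7d had 8297, 7726 and 7671 normalised CPM in control and 9119, 10070 and 9277 in HS cells. Its log2 fold change was 0.26, at a limma adjusted p of 0.255. It was chosen for its likeness to bta-miR-193b over the same 6 libraries, so its difference between the groups is no separate observation. Members were less near to each other than to these, which were picked as the nearest of all tested miRNAs outside the members. This comparison therefore cannot show whether the members vary together, and the distances also hold counting error. bta-miR-365-3p was number 22 of 364 by nearness to bta-miR-193b, at 0.164, and bta-miR-193b was number 60 by nearness to bta-miR-365-3p. bta-miR-365-3p was number 79 by nearness to bta-miR-365-5p, the other arm of its hairpins, at 0.285, and bta-miR-365-5p was number 177 by nearness to bta-miR-365-3p. bta-miR-365-5p was nearer to bta-miR-193a-5p than to any other member, at 0.206, with ranks of 17 from bta-miR-365-5p and 49 from bta-miR-193a-5p.

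Other miRNAs known as brakes on the cell cycle were listed for comparison: the miR-34 and miR-449 family, which p53 and E2F1 induce, the miR-15, miR-16, miR-195, miR-497, miR-424 and miR-503 group, which targets cyclins, and miR-143 and miR-145. Of 19 such rows 17 were tested and none was called at the study's threshold. Their log2 fold changes ran from -0.19 to 0.83 with a median of 0.077, against a median of -0.0015 over all tested miRNAs, and 3 had an unadjusted p under 0.05, beside 14.5% of all tested miRNAs. Those nearest in level to the members were bta-miR-34a for bta-miR-365-3p (mean 1586 normalised CPM, log2 fold change 0.48, limma adjusted p = 0.306), bta-miR-503-5p for bta-miR-193a-5p (121.9, 0.48, limma adjusted p = 0.311), bta-miR-503-3p for bta-miR-193b (40.6, 0.18, limma adjusted p = 0.839) and bta-miR-449b for bta-miR-365-5p (17.1, 0.41, limma adjusted p = 0.589).

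Of 17 rows for miRNAs linked to proliferation, drawn from the miR-17 to miR-92a cluster and its paralogs, miR-21, miR-221 and miR-222, 16 were tested and none was called. Their median log2 fold change was 0.044, with a range of -0.35 to 0.39, and 1 had an unadjusted p under 0.05, again beside 14.5%. The list does not hold bta-miR-363 of a paralog cluster, which is named after its values were seen (log2 fold change -0.79, limma adjusted p = 0.482). HS and control values were fully apart for 4 of the 17 tested in the first list and for 2 of the 16 in this one, beside the 20% of all tested miRNAs given above.

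Detection by the study's rule, at least 10 normalised CPM in at least 2 of the 3 libraries of a group, held for 4 members in control and for the same 4 in HS cells: bta-miR-365-3p, bta-miR-193a-5p, bta-miR-193b and bta-miR-365-5p. With a minimum of 1, bta-miR-193a-3p was added in control cells and not in HS cells, where its highest values were 1.63 and 0.664.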

How the data were processed

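The deposited signal is TMM-normalised CPM, 1 value per miRNA and library. Per the labels and the study's methods, libraries (100 ng input RNA, molecular identifiers, 16 PCR cycles) were trimmed with Cutadapt 1.11, collapsed by identifier, mapped with Bowtie2 2.2.2 to UMD3.1 (at most 1 mismatch in the first 32 bases), matched to miRBase and scaled in edgeR. How reads that match several related miRNAs were shared is not given in the sources used here, which touches bta-miR-193a-3p and bta-miR-193b.

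All deposited values were whole multiples of the value of 1 read (100% of values, tolerance 0.01 read), so whole reads were recovered. The floor of 3 reads equals 0.639 to 1.465 normalised CPM. The filter was filterByExpr of edgeR 4.0.16 on recovered reads, and the test was limma 3.58.1 (R 4.3.3, variance trend on the mean) on log2(value + 1), Benjamini-Hochberg adjusted over all tested miRNAs. Alternatives were other scalings, filters and pseudocounts, edgeR and DESeq2 1.42.0 on recovered reads, a replicate block and leaving out libraries singly. Ratios used recovered reads and exact permutation tests (scipy 1.17.1). The exact intervals from reads and the floors cover counting error only. The p-values of limma, edgeR and DESeq2 rest on the spread between these libraries. Those of the exact tests rest on the ways in which the libraries could be regrouped or flipped in sign. No pair of replicates agreed within sampling noise, as copies of one library would (chi-square at least 84.3 per degree of freedom). The members, lists and named miRNAs (all members, the 3 nearest profiles to each, and listed miRNAs nearest in level) were chosen with earlier results of these data known. Vesicle libraries were not analysed here. Gene neighbours came from ARS-UCD2.0, another assembly than that of the reads, so no positions are given.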

Additional observations from a re-analysis of the deposited data

How the results depend on the processing

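The number of members called was 0 under all 18 alternatives, and the lowest unadjusted p among them was 0.0676, for bta-miR-193b in limma without the trend. The adjusted p of bta-miR-193b ran from 0.373 to 0.804 over the alternatives, that of bta-miR-365-5p from 0.428 to 0.964, that of bta-miR-365-3p from 0.573 to 0.989 and that of bta-miR-193a-5p from 0.576 to 0.996. With DESeq2 size factors the log2 fold change of bta-miR-193a-5p was 0.0034, against -0.019. bta-miR-193a-3p and bta-miR-193a had a test only without the filter (log2 fold changes -0.20 and -0.094, limma adjusted p = 0.922 and 0.833); other tests were not run for them. A detection minimum of 100 left 2 members in each group.

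With each library left out in turn, the log2 fold change ran from -0.17 to 0.20 for bta-miR-193a-5p, from -0.065 to 0.033 for bta-miR-365-3p, from 0.25 to 0.35 for bta-miR-193b and from 0.057 to 0.37 for bta-miR-365-5p. The change with heat ran from -1.44 to 0.61 for the miR-193a arm ratio, from -0.17 to 1.59 for bta-miR-193b to bta-miR-193a-3p and from -0.50 to 1.26 for bta-miR-365-3p to bta-miR-193a-3p, which rest on 0 to 11 reads per library. It ran from 0.15 to 0.44 for bta-miR-193b to bta-miR-193a-5p, which kept its sign, from -0.18 to 0.11 for bta-miR-365-3p to bta-miR-193a-5p and from -0.30 to 0.060 for bta-miR-365-5p to bta-miR-193b. The other 5 ratios named in these 2 sentences each changed sign. The cause was not tested. The excess within libraries ran from -7.15 to -6.33 (miR-193a arms), 6.28 to 6.47 (miR-365 arms), 4.88 to 5.58 (bta-miR-193b to bta-miR-193a-3p), 10.2 to 10.9 (bta-miR-365-3p to bta-miR-193a-3p) and 5.35 to 5.43 (bta-miR-365-3p to bta-miR-193b). With 5 libraries the sign-flip test cannot go below 0.0625, so none of these stayed under 0.05 by construction.

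The replicate number as a block left the log2 fold changes at 0.30 for bta-miR-193b, 0.21 for bta-miR-365-5p, -0.029 for bta-miR-365-3p and -0.019 for bta-miR-193a-5p, with limma adjusted p-values of 0.444, 0.614, 0.936 and 0.966, and changed no call. The main fit had no block, since the study states none, and whether same-numbered libraries are pairs is not given. They correlated at 0.421, -0.117 and 0.616 in their deviations from the group means across the tested miRNAs. Control replicates 1 and 3 correlated best with the HS library of their own number, and control replicate 2 did not. Paired by number, the log2 ratio of bta-miR-365-3p to bta-miR-193b differed by -0.36, -0.29 and -0.35 (exact sign-flip permutation test, p = 0.25, the smallest possible).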
